A study of Mus musculus with 16 samples.

Results

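Rcan1, its relative Rcan3, the 3 catalytic subunits of calcineurin (Ppp3ca, Ppp3cb and Ppp3cc) and the NFAT transcription factors Nfatc1, Nfatc2 and Nfatc3 were followed in mouse leukemic cell lines with and without the Mediator kinase CDK8. These 8 of the 50686 gene models were chosen by name, with earlier results of the same libraries in view, and Rcan1 was selected on its lower counts in the Cdk8-ko lines. The genotype difference of Rcan1 is therefore described below without a test. Of the 8 genes, 7 passed the filter on low counts over the 16 libraries, as did 14164 of all gene models; Nfatc2 did not.

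Calcineurin is a phosphatase that calcium signals switch on. Its main known substrates in lymphoid cells are the NFAT proteins, which enter the nucleus once their phosphates are removed and leave it again after DYRK and GSK3 kinases have put phosphates back. RCAN proteins bind calcineurin and restrain it, and Rcan1 is itself a classical NFAT target. In B cells the pathway acts downstream of the antigen receptor, whose signal opens the calcium channel ORAI1.

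Poly(A) RNA was sequenced from bone marrow cells of C57BL/6N mice that had been transformed with a retrovirus carrying BCR-ABL1p185, the fusion kinase of Philadelphia chromosome-positive leukemia, and grown as cell lines. Controls carried unrecombined floxed Cdk8 (Cdk8 fl/fl, named wildtype in the labels), and the Cdk8-ko lines came from Cdk8Δ/Δ Vav-Cre mice, in which Cre recombinase is driven in the blood lineage. There were 4 individually derived lines per genotype, each kept for 48 h in 0.01% DMSO or in 1 µM Senexin B, an inhibitor of the kinase activity of CDK8 and its paralog CDK19. This gave 4 groups of 4 libraries, in which each line appears once untreated and once treated under the same number, and both genotypes share the oncogene and the strain.

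Library totals ran from 13145876 to 18349425 counts. The cells had the profile of the B lineage given by the study: Pax5 ran from 786 to 1616 CPM (counts scaled to 1000000 per library), Ebf1 from 695 to 1286, Igll1 from 624 to 1887 and Vpreb1 from 92.6 to 224.8 over the 16 libraries. The 5 T cell markers summed to at most 0.347 CPM, the 6 myeloid markers to at most 1.23, the 3 erythroid markers to at most 0.573 and the 3 stromal and endothelial markers to at most 0.825, and Cd3g and Elane had no count in any library. Cdk8 itself was at 68.7, 61.8, 63.3 and 65.8 CPM in the Cdk8 fl/fl lines 1 to 4 with DMSO. The Cdk8-ko lines had 35.3, 52.1, 47.1 and 42.8 CPM. These groups did not overlap, as for 3.06% of the 14164 genes. With Senexin B, Cdk8 had 89.4, 56.3, 56.8 and 55.2 CPM in Cdk8 fl/fl and 43.9, 61.7, 42.9 and 41.2 CPM in Cdk8-ko lines, and these groups overlapped, Cdk8-ko line 2 standing above 3 of the 4 controls. The counts sum over every exon and do not resolve the deleted part. The log2 difference with DMSO of -0.55 (SE 0.14) did not pass edgeR's quasi-likelihood test (adjusted p = 0.897). These are RNA values, and the paper reports by immunoblot that CDK8 protein was absent from leukemic cells of this genotype taken back from mice.

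Rcan1 has a pair of known start sites, and because its exons are counted as one gene, the 250 bases before each are shown here from RefSeq on the GRCm38.p6 build, with those of Rcan3 for comparison. All 3 starts lie on the minus strand. The upstream Rcan1 start follows chr16:92466170-92466419, the internal start, which serves the short isoform, follows chr16:92400079-92400328, and that of Rcan3 follows chr4:135433806-135434055. Capitals mark GGAAA, the core that NFAT proteins bind, and its complement TTTCC.
Rcan1, upstream start: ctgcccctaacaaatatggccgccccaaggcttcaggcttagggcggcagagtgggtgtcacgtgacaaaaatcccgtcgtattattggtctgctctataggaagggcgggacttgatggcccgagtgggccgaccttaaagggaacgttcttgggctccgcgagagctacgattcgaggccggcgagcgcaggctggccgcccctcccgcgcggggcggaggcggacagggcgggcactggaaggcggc
Rcan1, internal start: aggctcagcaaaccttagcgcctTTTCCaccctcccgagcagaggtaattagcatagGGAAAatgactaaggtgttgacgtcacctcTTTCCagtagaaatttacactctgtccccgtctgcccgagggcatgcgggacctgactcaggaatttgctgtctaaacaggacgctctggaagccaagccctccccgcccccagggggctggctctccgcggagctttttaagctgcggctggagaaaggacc
Rcan3: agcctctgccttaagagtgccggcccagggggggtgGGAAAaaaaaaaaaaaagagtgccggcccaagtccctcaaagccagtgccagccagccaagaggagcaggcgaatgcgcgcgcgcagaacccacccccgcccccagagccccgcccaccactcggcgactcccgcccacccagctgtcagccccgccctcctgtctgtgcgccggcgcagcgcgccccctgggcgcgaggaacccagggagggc
The window before the internal Rcan1 start held 3 matches, that before the upstream start 0 and that of Rcan3 1. Among other members, the Ppp3cb window also held 3, the Nfatc2 windows 3 and 1, and the Nfatc3 windows 1 and 0. Of 32851 such windows in the RefSeq table, 55.6% held at least 1 match on either strand. The upstream Rcan1 window held 24 CpG dinucleotides and the Rcan3 window 20, against 11 before the internal Rcan1 start and a median of 6 over all windows. A match describes letters only, and the gene counts, which add the 314-base and the 182-base first exons together, do not show which start was used.

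Rcan1 (chr16:92391953-92466146, minus strand, GRCm38) was lower in the Cdk8-ko lines than in the Cdk8 fl/fl lines. With DMSO, the Cdk8 fl/fl lines 1 to 4 had 4.62, 13.7, 8.10 and 8.61 CPM (8.76 ± 3.75, SD, n = 4). The Cdk8-ko lines 1 to 4 had 4.30, 3.38, 2.79 and 2.5 CPM (3.25 ± 0.79, SD, n = 4). The lowest Cdk8 fl/fl line stood just above the highest Cdk8-ko line, so the groups did not overlap, and Cdk8 fl/fl line 2 stood apart on the high side. The fitted log2 difference was -1.43 (SE 0.36), and it ranged from -1.64 to -1.14 when any single library was left out. Among the members, Rcan1 alone had groups that did not overlap in this comparison. Such groups were found for 3.06% of the 14164 genes, in either direction. Rcan1 was chosen for this difference, so the lack of overlap adds no support to it. In these bulk samples, fewer cells with Rcan1 and less Rcan1 RNA per cell cannot be told apart.

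The same order was seen with Senexin B, with some overlap. The Cdk8 fl/fl lines 1 to 4 had 6.27, 10.3, 4.93 and 4.77 CPM of Rcan1 (6.57 ± 2.58, SD, n = 4). The Cdk8-ko lines had 5.17, 3.3, 2.06 and 2.02 CPM (3.14 ± 1.48, SD, n = 4). Only Cdk8-ko line 1 reached into the range of the controls, and this line also had the highest Rcan1 of its genotype with DMSO. The fitted log2 difference was -1.06 (SE 0.43; -1.40 to -0.75 with any single library left out). Averaged over both treatments, the 4 Cdk8 fl/fl lines had 5.44, 12.0, 6.51 and 6.69 CPM and the 4 Cdk8-ko lines 4.74, 3.34, 2.43 and 2.26 CPM. In these averages the 2 lines numbered 1 were the closest across genotypes, though with Senexin B alone Cdk8-ko line 1 stood above Cdk8 fl/fl lines 3 and 4. Rcan1 rested on few reads, 29 to 218 counts per library, so its values carry a larger counting error than those of the other tested members.

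**Figure D1:**
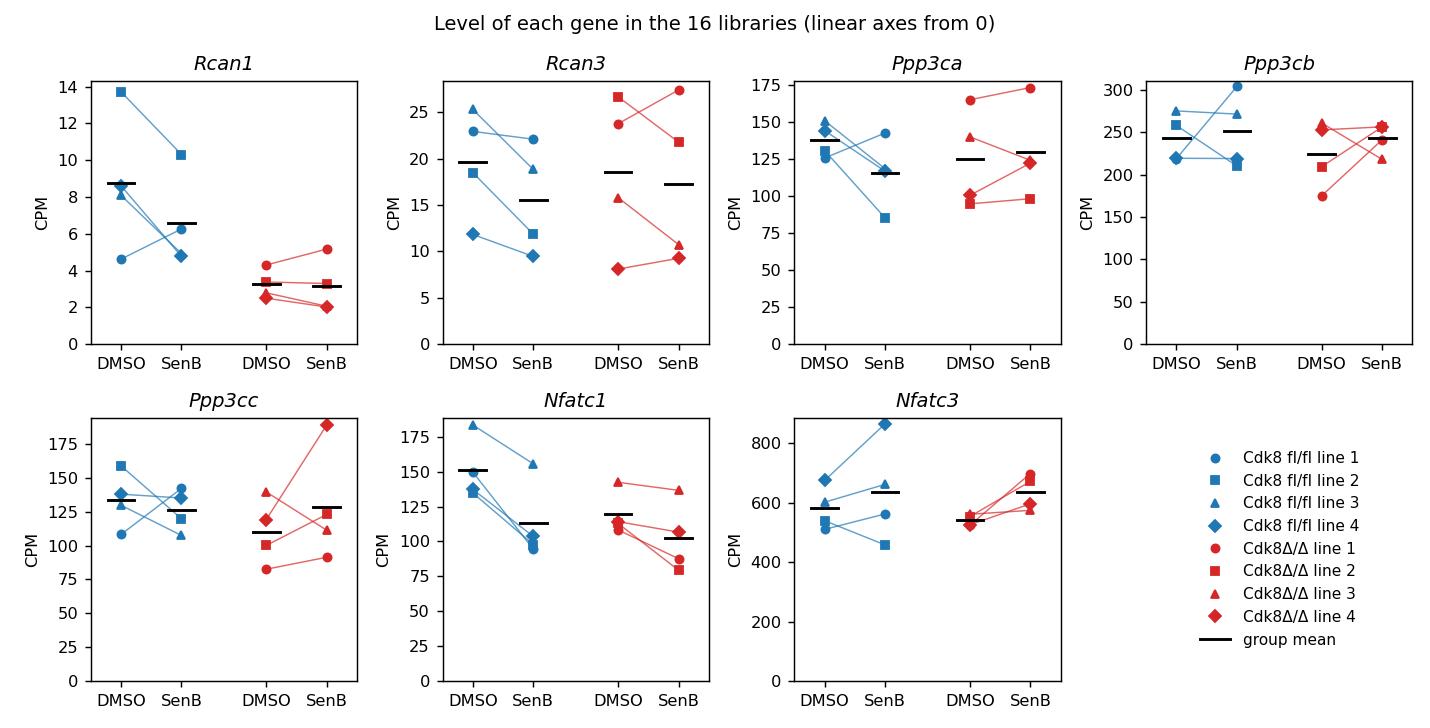
Level of the 7 tested members in CPM (vertical axes, linear, from 0) in each library, with DMSO and Senexin B (SenB) joined for each line; blue, Cdk8 fl/fl; red, Cdk8-ko (Cdk8Δ/Δ); black bars, means of 4 lines. Rcan1 with DMSO lies at 4.62 to 13.7 in the blue and 2.5 to 4.30 in the red lines, and Nfatc1 is lower with Senexin B in all 8 lines.

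No difference of Rcan1 with the inhibitor passed the test. Within the Cdk8 fl/fl lines 1 to 4, the log2 ratio of Senexin B to DMSO was 0.44, -0.41, -0.72 and -0.85. Within the Cdk8-ko lines it was 0.26, -0.04, -0.44 and -0.31. Rcan1 was thus lower with Senexin B in 6 of 8 lines and higher in the line numbered 1 of either genotype. The fitted log2 difference was -0.41 (SE 0.39) in Cdk8 fl/fl lines and -0.05 (SE 0.37) in Cdk8-ko lines, neither of which passed edgeR's test (adjusted p = 1 for both). Over the 8 lines, with line as a block, it was -0.26 (SE 0.16, adjusted p = 0.474), and the interaction of genotype and inhibitor was 0.37 (SE 0.55, adjusted p = 1). The fits in a single genotype and the interaction did not pair the libraries of a line. With line as a block, edgeR gave -0.38 (SE 0.26, adjusted p = 0.677) in Cdk8 fl/fl and -0.10 (SE 0.20, adjusted p = 0.894) in Cdk8-ko lines. The interaction was then 0.28 (SE 0.33, adjusted p = 0.991).

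Rcan3 (chr4:135412308-135433853), which also binds calcineurin, had overlapping levels in the genotypes. With DMSO, Rcan3 stood at 22.9, 18.5, 25.3 and 11.8 CPM in the Cdk8 fl/fl lines and at 23.8, 26.7, 15.8 and 8.10 CPM in the Cdk8-ko lines. With Senexin B, the values were 22.1, 11.9, 18.8 and 9.47 CPM in Cdk8 fl/fl and 27.4, 21.8, 10.7 and 9.27 CPM in Cdk8-ko lines. The groups overlapped almost fully, and the line numbered 4 was lowest in each of the 4 groups. The genotype difference with DMSO was -0.08 on the log2 scale (SE 0.38, adjusted p = 0.987, edgeR), a sign that turned with 3 of the 8 single libraries left out. With Senexin B Rcan3 was lower in 6 of 8 lines, with a log2 difference of -0.24 (SE 0.11) that did not pass the test (adjusted p = 0.334). 

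The catalytic subunits of calcineurin were well expressed in every library and none passed the test for genotype. With DMSO, Ppp3ca (chr3:136670124-136937727), the alpha isoform, was at 126, 131, 151 and 144 CPM in Cdk8 fl/fl and 165, 94.8, 140 and 101 CPM in Cdk8-ko lines. Ppp3cb (chr14:20499364-20546573), the beta isoform, was at 219, 258, 275 and 219 CPM against 175, 209, 261 and 253 CPM. Ppp3cc (chr14:70217898-70289449), the gamma isoform, was at 108, 159, 130 and 138 CPM against 82.5, 100, 140 and 119 CPM. All of these groups overlapped. The log2 differences of -0.14 (SE 0.18), -0.11 (SE 0.16) and -0.27 (SE 0.19) had adjusted p of 0.944, 0.947 and 0.909 in edgeR's test. 

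Senexin B left the subunits without a shared direction. Ppp3ca had 143, 85.3, 118 and 117 CPM in Cdk8 fl/fl and 173, 98.3, 124 and 122 CPM in Cdk8-ko lines with the inhibitor. Ppp3cb had 304, 210, 271 and 219 CPM, and 241, 256, 218 and 256 CPM. Ppp3cc had 142, 120, 108 and 135 CPM, and 91.4, 123, 111 and 189 CPM. Each subunit was higher in 4 of 8 lines and lower in the other 4, and within Cdk8 fl/fl line 1 all of them were higher with the inhibitor. The log2 differences over the 8 lines were -0.11 (SE 0.10) for Ppp3ca, 0.08 (SE 0.10) for Ppp3cb and 0.06 (SE 0.12) for Ppp3cc, with adjusted p of 0.669, 0.753 and 0.866. 

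Nfatc1 (chromosome 18), an NFAT gene of lymphocytes, was the member with the most regular response to the inhibitor. With DMSO it had 150, 135, 184 and 137 CPM in the Cdk8 fl/fl lines, and 108, 113, 142 and 114 CPM in the Cdk8-ko lines. With Senexin B it had 94.6, 97.8, 156 and 104 CPM, and 87.6, 79.4, 137 and 107 CPM. The level was lower with Senexin B in 8 of 8 lines, which held for 2.59% of the 14164 genes. The log2 ratios were -0.66, -0.46, -0.24 and -0.41 in Cdk8 fl/fl lines 1 to 4 and -0.31, -0.51, -0.06 and -0.10 in Cdk8-ko lines 1 to 4. In the 8-line fit the difference was -0.34 (SE 0.08) with an adjusted p of 0.0499 by edgeR, the only member under 0.05, against 2.63% of genes in either direction. The change is smaller than the 2-fold limit, and its adjusted p ran from 0.0646 to 0.135 when any one line was left out, so the call at 0.05 needs all 8 lines. It was 0.0529 with RLE size factors, 0.062 with a minimum of 10 counts per library and 0.00862 with DESeq2.

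Nfatc1 was also lower in Cdk8-ko lines with DMSO, by -0.34 on the log2 scale (SE 0.14), which did not pass (adjusted p = 0.897). With Senexin B the genotype difference was -0.14 (SE 0.23, adjusted p = 1), and it turned to 0.07 without Cdk8 fl/fl line 3. The Senexin B difference was -0.41 (SE 0.20) in Cdk8 fl/fl and -0.22 (SE 0.18) in Cdk8-ko lines taken alone (adjusted p = 1 for both). The difference between these effects was 0.20 (SE 0.28, adjusted p = 1). These fits did not pair the libraries of a line. With line as a block, edgeR gave -0.43 (SE 0.14, adjusted p = 0.335) in Cdk8 fl/fl and -0.24 (SE 0.10, adjusted p = 0.489) in Cdk8-ko lines. The interaction was then 0.20 (SE 0.16, adjusted p = 0.991), so an unequal response by genotype was not detected in either fit.

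Nfatc3 (chr8:106058840-106130537), the most abundant NFAT gene in these cells, had 510, 539, 602 and 675 CPM in Cdk8 fl/fl and 524, 553, 561 and 526 CPM in Cdk8-ko lines with DMSO. With Senexin B it had 562, 458, 662 and 866 CPM, and 698, 672, 574 and 596 CPM. It was higher with the inhibitor in 7 of 8 lines, and in the Cdk8-ko lines the groups did not overlap, as for 1.6% of genes. In the Cdk8-ko lines the log2 difference was 0.23 without pairing (SE 0.11, adjusted p = 1). With line as a block it was 0.23 (SE 0.10, adjusted p = 0.507, edgeR), and over the 8 lines 0.16 (SE 0.09, adjusted p = 0.384). By genotype with DMSO it was -0.10 (SE 0.12, adjusted p = 0.937). Exons of Nfatc3 share 219 bases with Esrp2 on the other strand, which had 57 counts in all 16 libraries together, against 148397 for Nfatc3. Nfatc2 (chr2:168476410-168601657) was practically silent, with 0 to 2 counts per library and 9 in all, and 8 libraries had none; a count of 0 allows up to 3 counts, by counting error only.

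Set side by side over the comparisons, and leaving aside Rcan1 by genotype, 0 members passed both limits used for a call (an adjusted p below 0.05 with a more than 2-fold change), with edgeR or with DESeq2. At an unadjusted p under 0.05 there was 1 member for genotype with DMSO and 1 over the 8 lines, Nfatc1 both times. That limit was met by 5.32% of all genes tested for genotype with DMSO and by 16.4% over the 8 lines. The share of all tested genes called was 0.00759% for genotype with DMSO (1 of 13174), 0% for genotype with Senexin B, and 0% for the inhibitor in either genotype taken alone. At an unadjusted p under 0.05 there were 701, 202, 493 and 243 genes in these 4 comparisons, and DESeq2 called 21, 3, 18 and 0 genes. With line as a block, edgeR called 0.346% of genes for the inhibitor in Cdk8 fl/fl and 0.0527% in Cdk8-ko lines, and again 0 members. The 8-line fit called 0.946% of genes and 0 members. The interaction called 0% of genes with either tool, with 67 genes at an unadjusted p under 0.05. The median log2 difference of the 7 members, Rcan1 included, was -0.14 for genotype with DMSO, the difference for which Rcan1 was chosen. For the inhibitor over 8 lines it was -0.11. Over all genes tested the medians were 0.002 and -0.005.

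**Figure D2:**
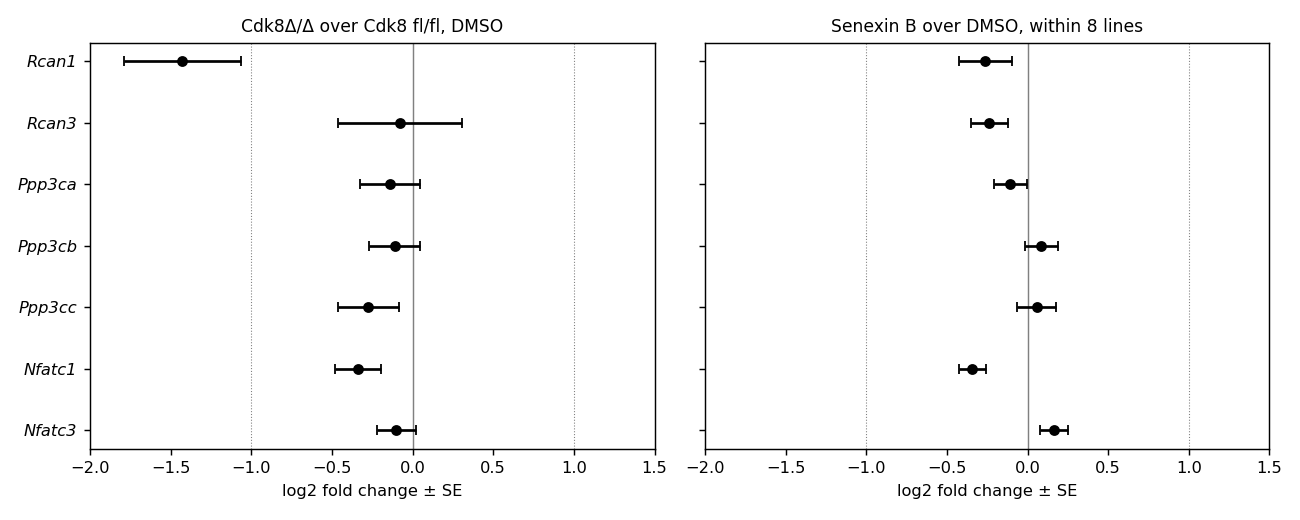
Fitted log2 fold changes (horizontal axes, points) with their standard errors (bars) for the 7 tested members, Cdk8-ko over Cdk8 fl/fl with DMSO (left) and Senexin B over DMSO within the 8 lines (right); dotted lines mark a 2-fold change. Rcan1 at -1.43 is the only point past a dotted line, and it was chosen for that difference; Nfatc1 lies at -0.34 in both panels.

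The members covered a wide range of levels. To compare genes, CPM was divided by the length of each exon model in kilobases. Averaged over the 16 libraries, the levels per kilobase were 64.1 ± 13.6 (SD, n = 16) for Ppp3cc, 51.1 ± 8.35 for Nfatc3, 39.9 ± 5.36 for Ppp3cb, 16.4 ± 3.8 for Nfatc1, 12.7 ± 2.51 for Ppp3ca, 3.48 ± 1.32 for Rcan3, 2.17 ± 1.3 for Rcan1 and 0.003 for Nfatc2. Neighbours in this order overlapped in range for Ppp3cc and Nfatc3, for Nfatc3 and Ppp3cb, for Nfatc1 and Ppp3ca, and for Rcan3 and Rcan1. Clear steps separated Ppp3cb from Nfatc1, Ppp3ca from Rcan3, and Rcan1 from Nfatc2, each in 16 of 16 libraries. Rcan3 exceeded Rcan1 in 12 of 16 libraries. Thus Ppp3cc, Nfatc3 and Ppp3cb were the most abundant members per kilobase, and both RCAN genes were sparse. This order depends on the annotated models, that of Ppp3cc having 1948 bases and that of Ppp3cb 6018. In CPM, not divided by length, Ppp3cb had the higher median over the 16 libraries (247, against 121 for Ppp3cc).

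**Figure D3:**
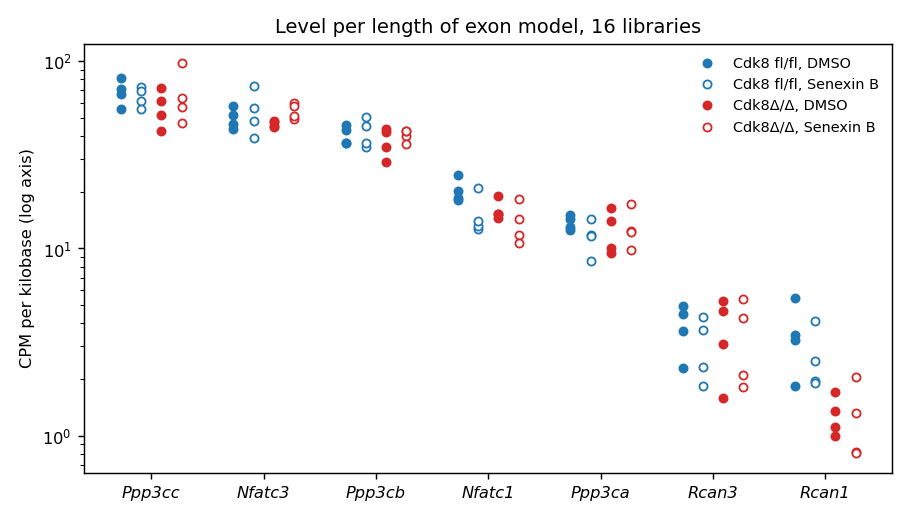
CPM per kilobase of exon model (vertical axis, log scale) of the 7 members with reads in every library, in the order of their means; each point is a library, blue for Cdk8 fl/fl and red for Cdk8-ko lines, filled for DMSO and open for Senexin B. The 3 most abundant genes lie between 29.1 and 97.1, and Rcan1 spreads from 0.81 to 5.48.

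The genes next to Rcan1 on chromosome 16 were compared to see whether the difference extended along the chromosome. Of 17 other gene models within 500 kb, 4 were expressed enough to be tested. Runx1, the hematopoietic transcription factor gene, had a log2 genotype difference with DMSO of 0.11 (SE 0.17). Smim11 had -0.21 (SE 0.17), the mitochondrial ribosomal gene Mrps6 -0.27 (SE 0.23), and Slc5a3, the myo-inositol transporter gene, 0.04 (SE 0.33). None passed edgeR's test (adjusted p from 0.913 to 0.992), and each had overlapping groups. With Senexin B the log2 genotype differences were 0.08 (SE 0.21) for Runx1, -0.35 (SE 0.20) for Smim11, -0.55 (SE 0.31) for Mrps6 and -0.33 (SE 0.37) for Slc5a3. Thus 3 of the 4 were on the lower side in Cdk8-ko lines with the inhibitor, none passed (adjusted p = 1 for each in edgeR's test), and their groups overlapped.

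The pattern of Rcan1 over the 16 libraries was most closely matched by Prkx, a cAMP-dependent kinase gene (Pearson r = 0.96 of log2(CPM + 1), n = 16). With DMSO, Prkx had 91.1, 177, 107 and 118 CPM in Cdk8 fl/fl and 86.5, 62.9, 64.1 and 59.6 CPM in Cdk8-ko lines. With Senexin B it had 77.4, 144, 99.6 and 78.4 CPM, and 104, 64.8, 50.2 and 54.3 CPM. Like Rcan1, Prkx was highest in Cdk8 fl/fl line 2 and had DMSO groups that did not overlap (as for 3.06% of genes). Prkx was picked for its likeness to Rcan1 over these same libraries, so these shared traits follow from the choice and add no support. The next were Map3k10 (r = 0.91), Fam50a (0.89), Plekhh3 (0.89) and Nxt2 (0.89), out of 14163 genes compared. With the group means taken out, r was still 0.91 for Prkx and 0.83 to 0.89 for the other 4, so the likeness includes the differences between lines of a group. Prkx, Fam50a and Nxt2 lie on chromosome X, as do 3.35% of the genes compared. Among the members, r with Rcan1 was 0.26 for Rcan3, 0.16 for Nfatc1, 0.14 for Ppp3ca, 0.11 for Ppp3cc, 0.06 for Ppp3cb and -0.09 for Nfatc3. These values share lines between treatments and describe likeness only.

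**Figure D4:**
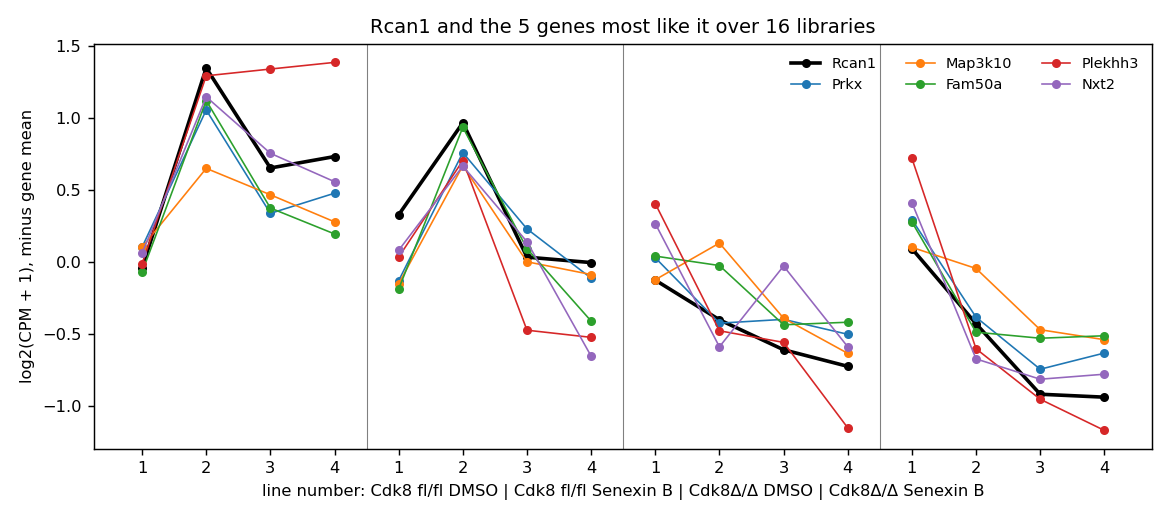
log2(CPM + 1) minus each gene's mean over 16 libraries (vertical axis) for Rcan1 (black) and the 5 genes most like it; the horizontal axis gives the line number within each of the 4 groups, and segments join the lines of a group for the eye only. Within the Cdk8 fl/fl group with Senexin B, Rcan1 and the other 5 genes are each highest in line 2, and all are lower in lines 3 and 4 than in line 1 of the Cdk8-ko group with Senexin B.

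Beyond the members, the rest of the pathway was read from 4 lists. Of the 13 genes for calcium entry and release, all were tested and none passed for genotype in either treatment. For genotype with DMSO, the calcium sensor Stim2 had a log2 difference of -0.22 (SE 0.16, adjusted p = 0.912). For the inhibitor over 8 lines, 6 were higher and 7 lower, with a median of -0.05 and 1 at an adjusted p under 0.05. That gene was Orai1, the pore of the store-operated calcium channel. With DMSO, Orai1 had 30.0, 46.0, 42.9 and 46.4 CPM in Cdk8 fl/fl and 44.9, 35.2, 27.1 and 29.4 CPM in Cdk8-ko lines. With Senexin B it had 26.5, 33.6, 25.2 and 26.4 CPM, and 40.7, 25.6, 14.7 and 24.1 CPM. It was lower in 8 of 8 lines, as were 2.59% of all genes. The log2 difference was -0.50 (SE 0.10, adjusted p = 0.0277, edgeR), and 2.63% of all genes had an adjusted p under 0.05. This change of Orai1 is below the 2-fold limit, and its adjusted p ran from 0.0223 to 0.0934 with any single line left out. Its relative Orai2 was lower in 7 of 8 lines (-0.26, SE 0.08, adjusted p = 0.12).

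Of the 8 other calcineurin subunits and binding proteins, 7 were tested and none passed for genotype. Ppp3r1, the regulatory subunit of calcineurin, had a log2 genotype difference with DMSO of -0.16 (SE 0.14), and Chp1, a calcineurin-like EF-hand protein, one of -0.20 (SE 0.17), each with an adjusted p of 0.913. With the inhibitor, Chp1 was lower in 8 of 8 lines, as were 2.59% of all genes. It went from 157, 173, 135 and 134 CPM to 91.0, 118, 97.0 and 93.8 CPM in the Cdk8 fl/fl lines, where the groups did not overlap (as for 2.1% of genes). In the Cdk8-ko lines it went from 173, 126, 118 and 104 CPM to 137, 77.6, 95.1 and 101 CPM. The log2 difference over the 8 lines was -0.47 (SE 0.09, adjusted p = 0.017, edgeR), below the 2-fold limit. An adjusted p under 0.05 was met by 2.63% of all genes. That of Chp1 ran from 0.0186 to 0.0568 with any single line left out. Fkbp1a, whose product binds the calcineurin-blocking drug tacrolimus, had -0.19 (SE 0.09, adjusted p = 0.317). The median of the list was 0.07.

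Of the 10 other NFAT proteins and NFAT export kinases, 8 were tested. None passed in any comparison. For genotype with DMSO the smallest p were those of the kinases Gsk3a (log2 difference -0.22, SE 0.13, adjusted p = 0.908) and Dyrk1a (-0.20, SE 0.15, adjusted p = 0.913). For the inhibitor over 8 lines they were those of Dyrk2 (0.33, SE 0.16, adjusted p = 0.331) and Nfat5, the osmotic-stress NFAT protein (-0.22, SE 0.13, adjusted p = 0.448). The median for the inhibitor was -0.05.

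Most NFAT target genes known from T cells were hardly expressed: of 13, 5 were tested for genotype with DMSO and 7 over the 8 lines. Il2, Ifng, Csf2, Cd40lg, Fasl and Pdcd1 were not tested in any comparison. For genotype with DMSO, the smallest p were those of Egr3, a zinc-finger transcription factor gene (0.75, SE 0.59, adjusted p = 0.913), and of the cytokine gene Tnf (-0.25, SE 0.35, adjusted p = 0.946). Il4 was tested only where the Cdk8-ko libraries with Senexin B took part, and Nr4a3 only over all 16 libraries. The filter on Il4 thus depended on its level with Senexin B, and the next split and median are not independent of it. With the inhibitor over 8 lines, 5 were higher and 2 lower, with a median of 0.42 beside -0.005 over all genes. Of the 7 tested, 1 passed both limits, as did 0.946% of all genes. That gene was Egr3, at a log2 difference of 1.71 (SE 0.37, adjusted p = 0.0341, edgeR).

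Egr3 was sparse, with 6 to 66 counts per library. With DMSO it had 0.92, 0.38, 0.43 and 0.77 CPM in the Cdk8 fl/fl lines and 0.44, 1.00, 0.51 and 2.28 CPM in the Cdk8-ko lines. With Senexin B it had 4.75, 1.15, 2.68 and 2.85 CPM, and 2.07, 2.68, 3.58 and 1.11 CPM. It was higher in 7 of 8 lines, with groups that did not overlap in Cdk8 fl/fl (as for 2.1% of genes), and lower in Cdk8-ko line 4. The call needed nearly all lines: leaving out any line but Cdk8-ko line 4 raised the adjusted p to between 0.05 and 0.0937, and without Cdk8-ko line 4 it was 0.002. Il2ra, which encodes the high-affinity interleukin-2 receptor chain, was higher in 7 of 8 lines as well (0.69, SE 0.19, adjusted p = 0.0861). It had 23.8, 14.5, 63.8 and 12.3 CPM with DMSO and 45.5, 24.6, 113 and 25.9 CPM with Senexin B in the Cdk8 fl/fl lines. In the Cdk8-ko lines it had 8.61, 8.77, 30.0 and 43.2 CPM with DMSO and 4.20, 14.5, 54.6 and 85.6 CPM with Senexin B. Only Cdk8-ko line 1 was lower. With any one line left out, the adjusted p in edgeR's test ran from 0.000519, without that line, to 0.191. Other targets went the other way. Tnf was lower with the inhibitor in 6 of 8 lines (mean log2 ratio -0.59, SD 0.73). Rcan1, itself a known NFAT target, was also lower with the inhibitor in 6 of 8 lines.

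**Figure D5:**
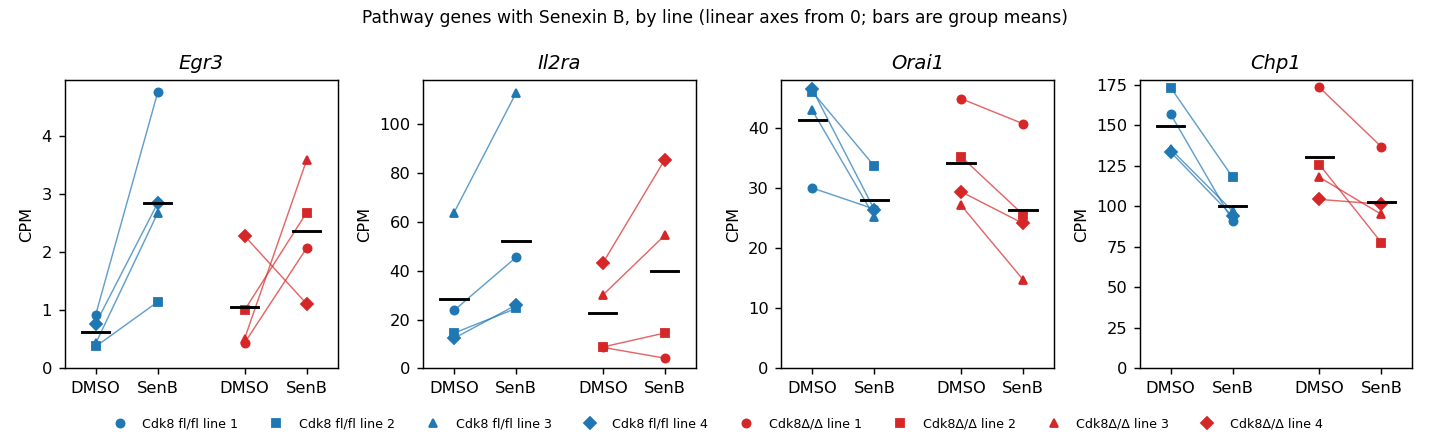
CPM (vertical axes, linear, from 0) of Egr3, Il2ra, Orai1 and Chp1 with DMSO and Senexin B (SenB), joined for each line; blue, Cdk8 fl/fl; red, Cdk8-ko (Cdk8Δ/Δ); black bars, means of 4 lines. Orai1 and Chp1 are lower with Senexin B in all 8 lines, and Egr3 and Il2ra are higher in 7 of 8.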

How the data were processed

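RNA was sequenced in 16 libraries, 4 lines per genotype with DMSO or Senexin B, as 50 bp single-end reads. The authors trimmed with Trimmomatic, mapped with STAR and counted with featureCounts 1.5.1 on GENCODE M13 (GRCm38). The deposited unit is raw counts per gene, not normalized and without a strand option, so reads of overlapping antisense genes cannot be told apart. Groups and line numbers came from the labels. Gene symbols matched 50376 of 50686 identifiers.

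The counts were analysed with edgeR 4.0.16 in R 4.3.3: filterByExpr, TMM factors, and quasi-likelihood fits (robust) with p-values adjusted after Benjamini and Hochberg over all genes tested. Genes were called at an adjusted p below 0.05 with a more than 2-fold change. CPM used the TMM factors of the 16 libraries together. Comparisons between 2 groups used their 8 libraries; the inhibitor was also tested over 8 lines with line as a block, and its interaction with genotype over 16 libraries. The standard error was derived from the fold change and the F statistic. Within a genotype, deviations of equally numbered DMSO and Senexin B libraries correlated at 0.56 to 0.87 in all 8 pairs, so the numbers pair libraries of a line.

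The members and the gene lists were chosen with earlier results of these data known. Named were all members, Cdk8, from each pathway list the 2 genes with the smallest p for genotype with DMSO and for the inhibitor over 8 lines plus any that passed, tested genes within 500 kb of Rcan1, and the 5 genes with the highest r to Rcan1; some genes that this rule or the marker lists name are not reported here. Alternatives were DESeq2 1.42.0, RLE size factors, other filters, no fold change limit, the block, and leaving out each library or line; the block without a fold change limit was added after seeing the data. The fits were tested on simulated data. Total counts of 13145876 to 18349425 limit the precision of sparse genes such as Rcan1. No 2 libraries agreed within sampling noise. The p-values for genotype measure the spread between lines. Those of the 8-line fit measure how the difference within a line varies between lines. The main fits for the inhibitor in a single genotype and for the interaction did not pair the libraries of a line.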

Additional observations from a re-analysis of the deposited data

Results flagged for a closer look

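Among 28 groups of 4 libraries, 7 members in 4 groups, 1 had a library far from the other 3: Nfatc1 in Cdk8 fl/fl line 3 with Senexin B, at 156 CPM, while lines 1, 2 and 4 had 94.6, 97.8 and 104 CPM. The gap to the nearest library made up 0.852 of the range of the group, above the 95% critical value of Dixon for 4 samples. Chance alone flags about 1 in 20 groups. The same line also had the highest Nfatc1 with DMSO, 184 CPM.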

How the results depend on the processing

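Over 315 alternatives for 23 log2 differences of the members, 307 kept their direction and 8 turned in sign, all of these with 1 library or line left out, and none brought a tested difference past both limits. The difference of Rcan1 by genotype with Senexin B, -1.06, came to less than 2-fold without Cdk8 fl/fl line 2 (-0.75), Cdk8-ko line 3 (-0.90) or Cdk8-ko line 4 (-0.90). The ranges with 1 left out were -0.31 to 0.17 for Rcan3 by genotype with DMSO (0.003, 0.06 and 0.17 without Cdk8 fl/fl line 1, Cdk8 fl/fl line 3 and Cdk8-ko line 4), -0.30 to 0.0674 for Nfatc1 by genotype with Senexin B, -0.41 to 0.12 for Rcan1 with the inhibitor in Cdk8-ko lines (0.12, 0.11 and 0.11), and -0.03 to 0.12 for Ppp3cc over the 8 lines (-0.0281 without Cdk8-ko line 4). None of these differences was called. The count of members called stayed at 0 in every alternative except that 1, Nfatc1, came in over the 8 lines with no fold change limit. That 1 became 0 with RLE size factors, with at least 10 counts in every library, with no replicate block, and with any line left out (0 to 0); the cause was not tested.

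With the replicate block, 0 members were called in any comparison, with or without the fold change limit. The genes called went from 0 to 45 for the inhibitor in Cdk8 fl/fl and from 0 to 7 in Cdk8-ko lines. Across genotypes, deviations of equally numbered libraries correlated at -0.15 to 0.43. Unequal numbers were not compared there, so whether numbers pair lines across genotypes was not tested. For genotype, genes called went from 1 to 21 with DESeq2 with DMSO and to 0 with the block, with at least 10 counts or with any library left out; with Senexin B they went from 0 to 3 with DESeq2 and 1 with no filter. For the inhibitor in Cdk8 fl/fl lines they went from 0 to 18 with DESeq2 and 3 with no filter. Over the 8 lines they went from 134 to 373 with no fold change limit, 40 with at least 10 counts, 0 with no replicate block and 80 to 178 with 1 line left out (80 without Cdk8 fl/fl line 3, 88 without line 4). Egr3, called over the 8 lines, had an adjusted p of 0.532 with no replicate block (log2 difference 1.66). Of the 5 genes most like Rcan1, 3 remained among the top 5 by Spearman correlation and 2 over the 8 line means, Prkx first in each. The order of member levels per kilobase held for all 8 with library totals alone. Differences in Rcan1 and Egr3 rest on few counts, and the genotype comparison has 4 lines a side.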

Other observations

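Rcan2, the other member of the RCAN family, was named after its values were seen. With DMSO it had 0.92, 0.25, 0.70 and 3.99 CPM in Cdk8 fl/fl lines 1 to 4 and 0.25, 1.82, 8.89 and 0.37 CPM in Cdk8-ko lines 1 to 4. With Senexin B it had 0.07, 0.57, 2.62 and 11.5 CPM, and 0, 1.17, 18.2 and 1.95 CPM. Line 1 of either genotype was lowest with the inhibitor, and it ended at 1 count or none. The log2 difference over the 8 lines was 0.77 (SE 0.48, adjusted p = 0.473, edgeR), and by genotype with DMSO 0.96 (SE 1.19, adjusted p = 0.939).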
